A study of Mus musculus with 8 samples.

Results

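The SOX transcription factors described here are the products of 10 genes, Sox1, Sox2, Sox3, Sox8, Sox9, Sox10, Sox11, Sox14, Sox17 and Sox21, measured in whole mouse embryos after hydroxyurea. They were taken as every array probe whose RefSeq accession belongs to one of these symbols, which gave 14 probes for the 10 genes, out of 55681 probes and 20145 named genes on the array. The genes were picked with their hydroxyurea and saline levels already known, so their levels and differences are given as a description, with no p-value, and where their calls are counted nothing is read from the count. All 14 probes passed the filter set for every probe, a signal well above background on 4 or more of the 8 arrays, which 30745 probes passed.

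Embryos came from dams of CD-1, an outbred mouse stock, on gestational day 9, when the neural tube closes, neural crest cells leave it and the organs begin to form. The 4 hydroxyurea samples were taken 3 h after the dam received 400 mg/kg hydroxyurea by intraperitoneal injection, and the 4 saline samples 3 h after an injection of saline. Hydroxyurea blocks ribonucleotide reductase and so starves DNA synthesis of its building blocks. The labels name whole embryo as the tissue and speak of 4 independent experiments, but do not tie samples to an experiment, a litter or a dam, so every SE measures the spread between samples.

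SOX proteins share a DNA-binding domain with SRY, the male sex-determining factor, and are sorted into groups by the similarity of that domain. The SOXB1 factors keep neural cells in the progenitor state, the SOXB2 factors, studied mostly in chick, oppose them, and the SOXC factors promote neuronal differentiation. The SOXE factors act in the neural crest, glia and cartilage, and the SOXF factors act in endoderm and blood vessels. Many SOX proteins bind DNA beside a partner factor, and related members can stand in for each other.

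Each array carried 59305 spots that are not controls, of which 48.67% to 62.27% were well above background. Arrays 1 and 2 of each group lay on slide 1 and arrays 3 and 4 on slide 2, so both slides held both groups. On slide 1 the share well above background was 56.04% and 57.43% on hydroxyurea arrays, against 62.27% and 59.82% on saline arrays. On slide 2 it was 48.67% (array 3) and 55.45% on hydroxyurea arrays, against 53.56% and 55.01% on saline arrays. All levels are log2 signals relative to the 75th percentile of the same array, and a difference is the hydroxyurea mean minus the saline mean on that scale, with the SE of the limma fit over all probes. Prl3d1 and Prl8a2, hormone genes of the placenta and decidua, stood apart on 2 hydroxyurea arrays. The level of Prl8a2 was -4.45, 2.40, 6.03 and -6.84 on hydroxyurea arrays 1 to 4, against -7.51, -3.18, -2.03 and -5.65 on saline arrays 1 to 4. They belong to a list of 6 trophoblast and decidua markers, 5 of them on the array. Prl3b1 and Plac1 of that list did not stand apart on hydroxyurea arrays 2 and 3. Prl3b1 was at 0.07 and 0.33 there, against 0.18, 0.36, 0.11 and -0.18 on saline arrays 1 to 4. Plac1 was at -0.27 and 0.08 there, against -0.45, 0.16, 0.18 and -0.64. Tpbpa, also of the list, was well above background on 0 arrays. The summed linear level of the list ran from 2.16 to 70.4 in hydroxyurea samples and from 1.63 to 2.71 in saline samples. Which tissue these levels came from was not tested. The differences were therefore also computed without hydroxyurea arrays 2 and 3, a setting chosen after these levels were seen; its values for all SOX genes follow with the spread of the arrays.

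Across the 14 probes the median difference was -0.35, against 0.02 over all probes tested, and single probes ran from -3.06 to 0.44. The hydroxyurea mean was below the saline mean for 11 of the 14, where 47.8% of all probes were. Groups did not overlap for 5 probes, all 5 lower in hydroxyurea, against 8.48% of all probes that were separated in that direction and 7.37% in the other. In the fit over all probes 1321 (4.3%) were called lower at an adjusted p under 0.05 and 774 (2.52%) were called higher. Of the SOX probes, 3 fell under that threshold on the lower side (Sox8, Sox10 and Sox14), 0 on the higher side, and 11 were not called. That count was 1 (Sox14) without hydroxyurea array 4, without saline array 3 or 4, with no filter or on slide 1 alone. It was also 1 (Sox10) with a filter asking for all 8 arrays, which the Sox14 and Sox8 probes did not pass. Leaving out hydroxyurea array 1 or saline array 1 or 2 gave 2, as did the slide as a block. The count was 5 without hydroxyurea array 2. Over all settings it ran from 0 (slide 2 alone) to 6 (without hydroxyurea arrays 2 and 3). The genes were picked on this contrast, so nothing is read from these counts.

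**Figure D1:**
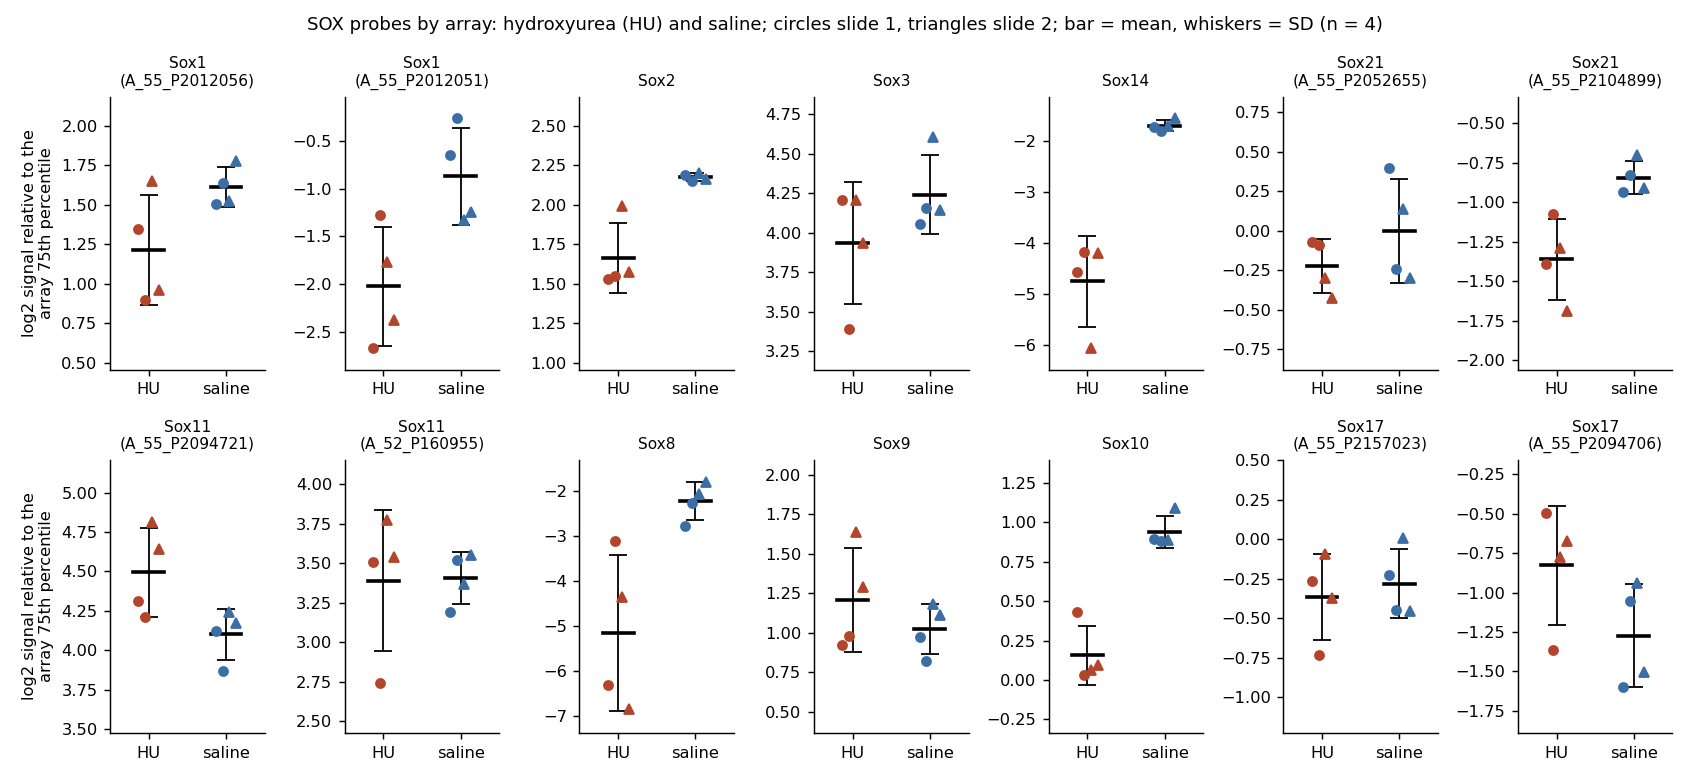
Level of each of the 14 SOX probes on every array, in log2 units relative to the 75th percentile of the array, with hydroxyurea (HU) arrays on the left of each panel and saline arrays on the right. Circles are slide 1, triangles slide 2, and the bar and whiskers are the mean and SD of 4 arrays; the groups are fully apart for Sox2, Sox8, Sox10, Sox14 and 1 of the 2 Sox21 probes.

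Sox14, a SOXB2 factor of ventral brain and spinal cord neurons, had the lowest difference of the 10 genes. Its level (NM_011440) was -4.58, -4.19, -6.07 and -4.19 on hydroxyurea arrays 1 to 4, against -1.72, -1.79, -1.71 and -1.55 on saline arrays 1 to 4. Every hydroxyurea array lay more than 2 log2 units below every saline array, and the saline arrays lay close together. The difference was -3.06 ± 0.38 (SE, n = 4 each). The signal was well above background on 3 of the 4 hydroxyurea arrays and on all 4 saline arrays; on hydroxyurea array 3 it lay under -3.86, the lowest level of any probe well above background there. With that array raised to this level, a setting chosen after the values were seen, the difference was -2.51, or 5.7-fold lower in hydroxyurea embryos. Background correction moved the size of this difference, which was -1.12 after normexp correction, and it was -2.69 without hydroxyurea arrays 2 and 3. Whole embryos were measured, so for Sox14 and for every gene below, fewer cells of a type and less RNA per cell cannot be told apart.

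The sequences before the annotated starts of Sox14 and Sox8, the 2 genes with the lowest differences, are shown beside that of Sox11, a gene with a probe whose mean was higher in hydroxyurea. Each runs 5′ to 3′ over the 250 bases before the start of the gene in RefSeq's annotation of GRCm38.p6, with matches to CCAAT and GGGCGG, on either strand, in capitals.
Sox14, chr9:99876171-99876420, minus strand: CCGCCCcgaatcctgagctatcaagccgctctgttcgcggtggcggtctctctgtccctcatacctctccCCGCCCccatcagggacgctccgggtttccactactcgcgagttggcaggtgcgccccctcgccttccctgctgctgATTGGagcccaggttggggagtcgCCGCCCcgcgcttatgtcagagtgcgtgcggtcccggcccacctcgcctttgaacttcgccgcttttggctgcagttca
Sox8, chr17:25570687-25570936, minus strand: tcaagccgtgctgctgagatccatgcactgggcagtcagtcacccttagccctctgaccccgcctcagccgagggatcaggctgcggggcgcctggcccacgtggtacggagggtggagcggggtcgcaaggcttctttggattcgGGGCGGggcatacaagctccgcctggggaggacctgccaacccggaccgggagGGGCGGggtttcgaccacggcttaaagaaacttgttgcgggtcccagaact
Sox11, chr12:27342719-27342968, minus strand: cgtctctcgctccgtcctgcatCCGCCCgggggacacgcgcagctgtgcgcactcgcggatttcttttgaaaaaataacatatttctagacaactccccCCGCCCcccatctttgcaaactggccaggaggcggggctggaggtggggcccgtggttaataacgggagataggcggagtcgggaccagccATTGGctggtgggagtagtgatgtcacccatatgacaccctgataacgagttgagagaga
Start regions were at hand for 6 of the 10 genes, which are these 3 with Sox1, Sox2 and Sox21. CCAAT or its complement ATTGG, the core letters read by the factor NF-Y, occurred in 4 of the 6 windows, against 33.85% of 32851 windows of the same length. GGGCGG or CCGCCC, the core of the GC box read by SP factors, occurred in 5 of the 6 and in 32.74% of all windows. In Sox14 the CCAAT match began 103 bases before the start and the GC boxes 250, 180 and 79 bases before it. The Sox8 window held GC boxes at 104 and 51 bases and no CCAAT match, and the Sox11 window held both motifs, CCAAT at 60 bases and GC boxes at 228 and 151. Neither AACAAT (or ATTGTT), a core that SOX proteins themselves bind, nor TATAAA (or TTTATA) occurred in any of the 6, against 9.42% and 12.37% of all windows. The 6 windows were rich in G and C, at 58% to 72% against a median of 52.4%, and held 17 to 29 CpG pairs against a median of 6; 23.52% of all windows held at least as many CpG pairs as the lowest of the 6. The windows of Sox14 and Sox8, which were low in hydroxyurea embryos, and of Sox11, which was not, thus shared GC boxes. These matches are letters in a sequence and not measured binding.

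The other SOXB2 gene, Sox21, which in chick pushes neural progenitors towards differentiation, was measured by 2 probes that differed in size. Probe A_55_P2104899 (NM_177753) gave -1.39, -1.07, -1.29 and -1.69 in hydroxyurea samples, against -0.93, -0.83, -0.70 and -0.91 in saline samples. All hydroxyurea values lay below all saline values, and the difference was -0.52 ± 0.17 (SE, n = 4 each), or -0.30 after normexp correction. Probe A_55_P2052655 gave -0.07, -0.09, -0.30 and -0.43 in hydroxyurea samples, against 0.40, -0.24, 0.14 and -0.30 in saline samples. Here the groups overlapped, with saline arrays 2 and 4 inside the hydroxyurea range, and the difference was -0.22 ± 0.19. Both probes pointed the same way, but one of them within the spread of the samples.

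All 4 probes of the SOXB1 genes had lower means in hydroxyurea embryos, with a median difference of -0.46. Sox2, needed for self-renewal of neural progenitors and of pluripotent cells, was at 1.53, 1.55, 1.995 and 1.57 in hydroxyurea samples, against 2.19, 2.15, 2.20 and 2.17 in saline samples (NM_011443). The saline samples had an SD of 0.02 and all lay above the highest hydroxyurea sample, array 3; the hydroxyurea samples had an SD of 0.22. The difference was -0.51 ± 0.15 (SE, n = 4 each), 1.43-fold lower in hydroxyurea, and -0.62 without hydroxyurea arrays 2 and 3.

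Sox1, which marks the neural plate and promotes neural fate, was read by 2 probes (NM_009233). Probe A_55_P2012051 gave -2.67, -1.27, -1.77 and -2.37 in hydroxyurea samples, against -0.65, -0.26, -1.33 and -1.25 in saline samples. Hydroxyurea array 2 reached just into the saline range, while on each slide alone the groups were apart. Its difference was -1.15 ± 0.35, and -0.78 after normexp correction. Probe A_55_P2012056 gave 1.35, 0.90, 1.65 and 0.96 in hydroxyurea samples, against 1.50, 1.64, 1.52 and 1.78 in saline samples. Only hydroxyurea array 3 lay inside the saline range there, and the difference was -0.40 ± 0.19. Sox3, the X-linked member expressed through the early neural plate and in the forming pituitary, was at 4.21, 3.39, 4.21 and 3.94 in hydroxyurea samples, against 4.06, 4.16, 4.61 and 4.15 in saline samples (NM_009237). Its groups overlapped, and the difference of -0.31 ± 0.22 shrank to -0.12 without hydroxyurea array 2, which was the lowest. The linear levels of the neural tube markers Sox2, Sox1 and Pax6, relative to the array's 75th percentile, were summed. This sum ran from 5.36 to 7.74 in hydroxyurea samples and from 8.32 to 8.65 in saline samples, without overlap. Sox1 and Sox2 make up most of it, so it mainly repeats their levels and is no separate reading of the neural tube. A longer list of neural progenitor genes, given further on, had a median difference of -0.07. The share of neural cells in the samples was not tested.

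Among the SOXE genes, Sox10 and Sox8 were lower and Sox9 was not. Sox10, the factor that keeps migrating neural crest cells multipotent and later drives glia and pigment cells, was at 0.43, 0.03, 0.06 and 0.10 in hydroxyurea samples, against 0.90, 0.88, 0.89 and 1.09 in saline samples (NM_011437). The groups were wide apart relative to their spread, with 1 array of each group off the other 3: hydroxyurea array 1 was nearest to saline, and saline array 4 farthest from hydroxyurea. The difference was -0.78 ± 0.15 (SE, n = 4 each), 1.72-fold lower in hydroxyurea. All 8 arrays measured Sox10 well above background. Its difference stayed between -0.91 and -0.66 under the 19 other settings tried, some of which, such as the filters, cannot move it. It was -0.83 after normexp correction and -0.67 without hydroxyurea arrays 2 and 3. The neural crest marker sum of Sox10, Foxd3 and Tfap2a, of which Sox10 is a part, ran from 2.68 to 3.93 in hydroxyurea samples and from 4.35 to 5.48 in saline samples. A longer list of crest genes without Sox10, given further on, had a median difference of 0.01, and a further Tfap2a probe stood at 0.01 as well.

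Sox8, which overlaps in function with Sox9 and Sox10 in the crest and the gonad, was at -6.31, -3.11, -4.36 and -6.84 in hydroxyurea samples, against -2.78, -2.28, -2.07 and -1.79 in saline samples (NM_011447). No hydroxyurea value reached the saline range, but the 4 hydroxyurea values spread over more than 3 log2 units. Its signal was well above background on all 4 saline arrays and on only 1 hydroxyurea array, number 2, so the low end of the hydroxyurea values is not resolved and no exact fold is given. The fitted difference was -2.93 ± 0.73, but -2.05 with the other 3 hydroxyurea arrays raised to their lowest level well above background, and -0.70 after normexp correction. Without hydroxyurea arrays 2 and 3 it was -4.35, which rests on arrays 1 and 4 alone, neither well above background. The direction was the same under these settings, and the size was not. Sox9, the master factor of cartilage and also an early crest and gonad gene, was at 0.92, 0.98, 1.64 and 1.29 in hydroxyurea samples, against 0.97, 0.82, 1.18 and 1.11 in saline samples (NM_011448). These ranges overlapped, and the difference was 0.19 ± 0.19, the size of its own SE. It ran from 0.04 without hydroxyurea array 3 to 0.28 without hydroxyurea array 1.

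Sox11 and Sox17 had no direction that both of their probes shared. Sox11, a SOXC factor that switches on neuronal genes and supports the survival of young neurons, was read by 2 probes (NM_009234). Probe A_55_P2094721 gave 4.31, 4.21, 4.82 and 4.64 in hydroxyurea samples, against 4.12, 3.87, 4.24 and 4.17 in saline samples. Hydroxyurea array 2 lay just under saline array 3, the groups were apart on each slide alone, and the difference was 0.39 ± 0.18. Probe A_52_P160955 gave 3.51, 2.74, 3.77 and 3.54 in hydroxyurea samples, against 3.19, 3.52, 3.37 and 3.55 in saline samples. Its difference of -0.02 ± 0.23 kept its sign under 13 of 18 other settings only and became 0.20 without hydroxyurea array 2, so no direction is given for it.

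Sox17, a SOXF factor that founds the endoderm and marks arterial and blood-forming endothelium, was likewise divided between its 2 probes (NM_011441). Probe A_55_P2157023 gave -0.27, -0.73, -0.09 and -0.38 in hydroxyurea samples, against -0.23, -0.45, 0.01 and -0.46 in saline samples. The groups lay over each other, at a difference of -0.09 ± 0.19 that became 0.04 without hydroxyurea array 2. Probe A_55_P2094706 gave -0.50, -1.37, -0.77 and -0.67 in hydroxyurea samples, against -1.60, -1.05, -0.94 and -1.50 in saline samples. At 3 of the 4 hydroxyurea arrays this probe was above every saline array, hydroxyurea array 2 was low, and the difference was 0.44 ± 0.24. Sums of the markers of gut endoderm (Sox17, Foxa2 and Shh) ran from 3.01 to 5.94 in hydroxyurea samples and from 4.04 to 5.14 in saline samples, so the ranges lay over each other. Those of endothelium (Kdr, Cdh5 and Pecam1) ran from 6.56 to 15.6 in hydroxyurea samples and from 17.0 to 30.0 in saline samples and did not overlap. The markers themselves were uneven, with Kdr at -1.16 and -0.38 by its 2 probes, Cdh5 at -0.76 and Pecam1 at -0.05. Of the Kdr probes, the sum held the one at -1.16, which was not called (limma adjusted p = 0.0885). The longer endothelial list of 22 probes had a median difference of 0.17.

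The hydroxyurea samples scattered more than the saline samples. The SD was larger in hydroxyurea for 13 of the 14 SOX probes, where this held for 59.49% of all probes. The median SD over the SOX probes was 0.34 in hydroxyurea and 0.16 in saline, and over all probes it was 0.31 in hydroxyurea and 0.26 in saline. Hydroxyurea array 2 was the lowest or the highest of its group for 11 of the 14 probes, and the lowest for 7. Without hydroxyurea arrays 2 and 3, 13 of the 14 differences kept their sign, at a median of -0.35. For the neural members this setting gave -1.65 and -0.46 by the 2 Sox1 probes, -0.17 for Sox3, and -0.70 and -0.25 by the 2 Sox21 probes. It gave 0.37 and 0.115 by the 2 Sox11 probes, 0.08 for Sox9, and 0.69 and -0.04 by the 2 Sox17 probes, beside the values given above for Sox2, Sox8, Sox10 and Sox14.

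Each slide held 2 hydroxyurea and 2 saline arrays and so gave its own comparison. Slide 1 was scanned at 3 and slide 2 at 5 micrometres per pixel, so slide and scan setting cannot be told apart. On slide 1, 11 of the 14 probes were lower in hydroxyurea at a median of -0.33, and on slide 2, 10 were lower at a median of -0.32. The sign was the same on both slides for 13 probes, of which 10 were lower on both and 3 higher on both; the 1 that turned was Sox11 probe A_52_P160955. Sox14 stood at -2.63 on slide 1 and -3.50 on slide 2, Sox8 at -2.18 and -3.67, and Sox10 at -0.66 and -0.91. Tested directly as a treatment by slide term in limma over 30663 probes, the slides differed in their effect for 0 probes after Benjamini-Hochberg adjustment (0% called), with 295 at an unadjusted p under 0.05. Those 295 are fewer than chance alone would mark at that threshold. With 2 arrays per group on each slide the test could miss a slide difference. The lowest unadjusted p among the SOX probes was 0.291, for Sox14 (adjusted p = 1).

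**Figure D2:**
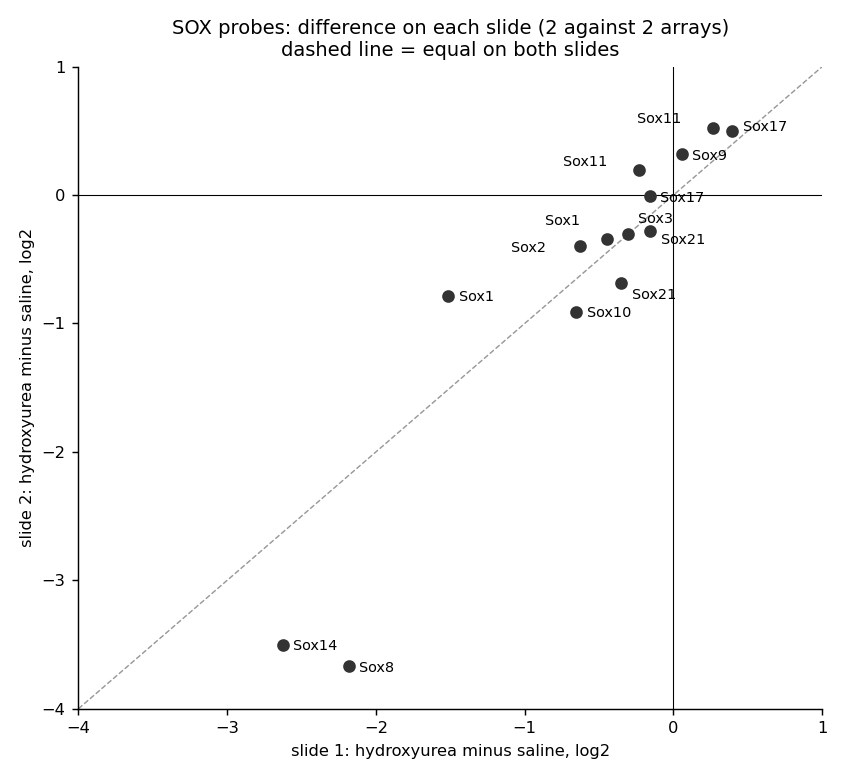
Hydroxyurea minus saline difference of each SOX probe in log2 units, on slide 1 (horizontal axis) and slide 2 (vertical axis), each from 2 hydroxyurea and 2 saline arrays; the dashed line marks equal differences. Of the 14 points 10 are negative on both slides and 3 positive on both, and Sox14 and Sox8 lie far below the rest on each.

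The other mouse Sox genes on the array complete the family, and since they were what the choice of the 10 left over, their tests are not independent of it. They are 10 genes with 11 probes, of which 8 probes of 7 genes passed the filter. Of the 8, 0 were called by limma at an adjusted p under 0.05, and 3 had an unadjusted p under 0.05. Their median difference was -0.05, with 4 probes below 0 and 4 above.

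Sox18, a SOXF factor of blood and lymph vessels, was at 1.61, 1.02, 1.60 and 1.49 in hydroxyurea samples, against 0.89, 0.80, 0.77 and 0.72 in saline samples. All hydroxyurea samples were above all saline samples, and the difference was 0.64 ± 0.17 (limma adjusted p = 0.0552). Sox7, also a SOXF factor of endothelium, was at 0.09, -0.36, 0.07 and 0.12 in hydroxyurea samples, against -0.32, -0.47, -0.67 and -0.59 in saline samples. Here hydroxyurea array 2 reached into the saline range, and the difference was 0.49 ± 0.17 (limma adjusted p = 0.110). Both vessel factors had positive differences, as 1 of the 2 Sox17 probes had, beside an endothelial list whose median was 0.17.

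Sox13, a SOXD factor that modulates WNT signalling, was the lowest of these genes. Its level was 1.45, 1.58, 1.46 and 1.19 in hydroxyurea samples, against 2.12, 2.35, 1.85 and 1.90 in saline samples. The groups were apart, at -0.64 ± 0.17 (limma adjusted p = 0.0544). Sox13 and Sox18 each passed the threshold with quantile normalization, with a filter that asks for all 8 arrays, or without hydroxyurea array 2 (adjusted p = 0.0343 for Sox13 and 0.00916 for Sox18), where Sox7 passed too (0.0272). Without any other single array neither Sox13 (limma adjusted p between 0.0803 and 0.163) nor Sox18 (between 0.105 and 0.154) passed. Sox4 and Sox12, the SOXC partners of Sox11, and Sox5 and Sox6, the SOXD cofactors of Sox9 in cartilage, had differences between -0.31 and 0.37 and adjusted p-values of 0.292 or more. Sox15, Sox30 and Sry did not pass the filter, being well above background on 1, 0 and 2 of the 8 arrays.

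**Figure D3:**
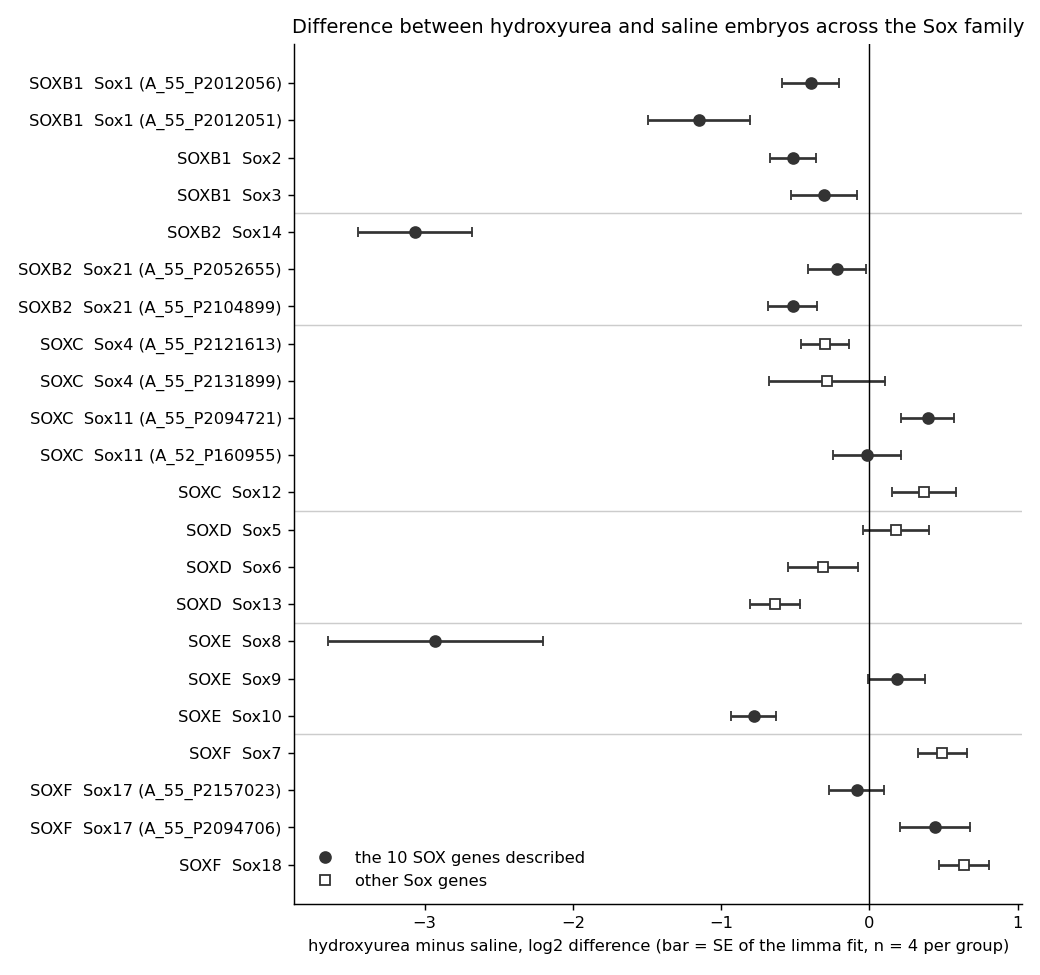
Hydroxyurea minus saline difference of every Sox probe past the filter, in log2 units, ordered by SOX group, with the SE of the limma fit (n = 4 arrays each); filled circles are the 10 genes described and open squares the other Sox genes. Sox14 and Sox8 lie near -3, with values below background entered as measured, the SOXB1 and SOXB2 probes all lie below 0, and Sox7 and Sox18 lie above it.

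Genes that work with SOX factors were read from 6 lists of 129 genes, of which 124 were measured by 149 probes. Of these probes 5 (3.36%) were called, all 5 lower in hydroxyurea, against the 4.3% called lower and 2.52% called higher among all probes. Of the 29 neural progenitor probes (23 of 24 genes measured) 2 fell and 0 rose, at a median difference of -0.07. Six3, a factor of the forebrain and eye, was at -1.84, -1.40, -2.15 and -1.86 in hydroxyurea samples, against -0.24, -0.81, -0.18 and -0.20 in saline samples. All 4 hydroxyurea samples were below all saline samples, and Six3 fell by 1.46 ± 0.21 (limma adjusted p = 0.00601). Pou3f2, a POU partner of SOX2 in neural cells, was at -2.27, -1.07, -1.08 and -2.18 in hydroxyurea samples, against -0.36, -0.59, -0.01 and 0.21 in saline samples. It fell by 1.46 ± 0.33 (limma adjusted p = 0.0313), with hydroxyurea arrays 2 and 3 nearer to saline. The call was lost without hydroxyurea array 1 or 4 or any saline array (adjusted p between 0.0510 and 0.0942). It was also lost with no filter (0.0859) and on either slide alone.

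In the neural crest list 1 of 30 probes fell and 0 rose (23 of 24 genes measured), at a median of 0.01. That probe was of Pax3, which with Sox10 switches on pigment cell and nerve genes, at -1.10, -0.81, -0.74 and -0.55 in hydroxyurea samples, against 0.04, -0.40, -0.12 and 0.17 in saline samples. It fell by 0.72 ± 0.18 (limma adjusted p = 0.0478) and lost its call without any single array but hydroxyurea array 2. The call was also lost with median centring (limma adjusted p = 0.0508), the slide as a block (0.0528), normexp (0.0598) or no filter (0.153). Neither slide alone kept it. Another Pax3 probe gave -0.40 and did not pass (0.148).

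For SOX9, 1 of 21 probes of cartilage and sclerotome genes fell and 0 rose (18 of 20 genes measured), at a median of -0.06. The 1 was probe A_55_P1955756 of Pax9, a sclerotome and pharyngeal factor, which was well above background on all 4 saline arrays and on 0 hydroxyurea arrays, and so passed the filter through the saline group alone. By this probe the signal was at least 1.90-fold lower in hydroxyurea, with measured means of -5.09 in hydroxyurea and -3.75 in saline samples (limma adjusted p = 0.00555). A bound of this kind sets the saline mean against the higher of the probe's own value and the lowest level well above background on each hydroxyurea array. The 2 Pax9 probes did not give the same size. The other, A_55_P2117908, was well above background on all 8 arrays, overlapped between groups and gave -0.24 (adjusted p = 0.364), and after normexp correction the first gave -0.15 (0.740), so no fold is given for the gene.

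In the endoderm list 0 of 21 probes were called by limma (20 of 21 genes measured), 3 had an unadjusted p under 0.05, and the median was -0.03. Its lowest p-values were those of Gata4, a factor of gut and heart, at -0.56 ± 0.19 (adjusted p = 0.110), and of Hhex, a factor of foregut and blood vessels, at 0.45 ± 0.17 (0.136). In the endothelial list 1 of 22 probes fell and 0 rose (20 of 20 genes measured), at a median of 0.17. This was Erg, an ETS factor of blood vessels, at -3.64, -3.37, -2.88 and -3.75 in hydroxyurea samples, against -2.88, -2.48, -2.18 and -2.33 in saline samples. It fell by 0.94 ± 0.23 (limma adjusted p = 0.0445), and was -0.40 after normexp correction, where it did not pass (0.258). The call was also lost without hydroxyurea array 1 (0.126) or 4 (0.134) or saline array 2 (0.0999), 3 (0.118) or 4 (0.0970). Nor did Erg pass with the slide as a block (0.0513), with no filter (0.129) or on either slide alone.

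In the early neuron list, whose genes mark the cells in which Sox11 and Sox14 act, 0 of 26 probes were called by limma (20 of 20 genes measured), 4 had an unadjusted p under 0.05, and the median was 0.19. Neurog2, a proneural factor, was at -1.30, -0.27, -0.44 and -1.46 in hydroxyurea samples, against 0.40, 0.15, -0.06 and 0.25 in saline samples. Its groups were apart, at -1.05 ± 0.28 (adjusted p = 0.0581), with hydroxyurea arrays 2 and 3 nearer to saline than the others. Neurog2 passed without those 2 arrays (-1.57, limma adjusted p = 0.00418), without hydroxyurea array 2 alone (0.0201), with normexp (0.0296), with trend and robust (0.0323) and with the filter of all 8 arrays (0.0408). It did not pass in the other settings, at adjusted p from 0.0521 with quantile normalization to 0.544 on slide 1 alone. Among these were the slide as a block (0.0803) and the removal of any saline array (0.0978 to 0.137). Neurog1, its close relative, stood at -0.71 ± 0.29 (adjusted p = 0.168), and at -1.16 without hydroxyurea arrays 2 and 3 (0.0275). Of the other named list genes, without those arrays Hhex passed (0.64, adjusted p = 0.0357) and Pax3 did not (-0.75, 0.0779), while Pou3f2 stood at -2.04 (0.00475), Erg at -1.23 (0.0163) and Six3 at -1.49 (0.00892).

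**Figure D4:**
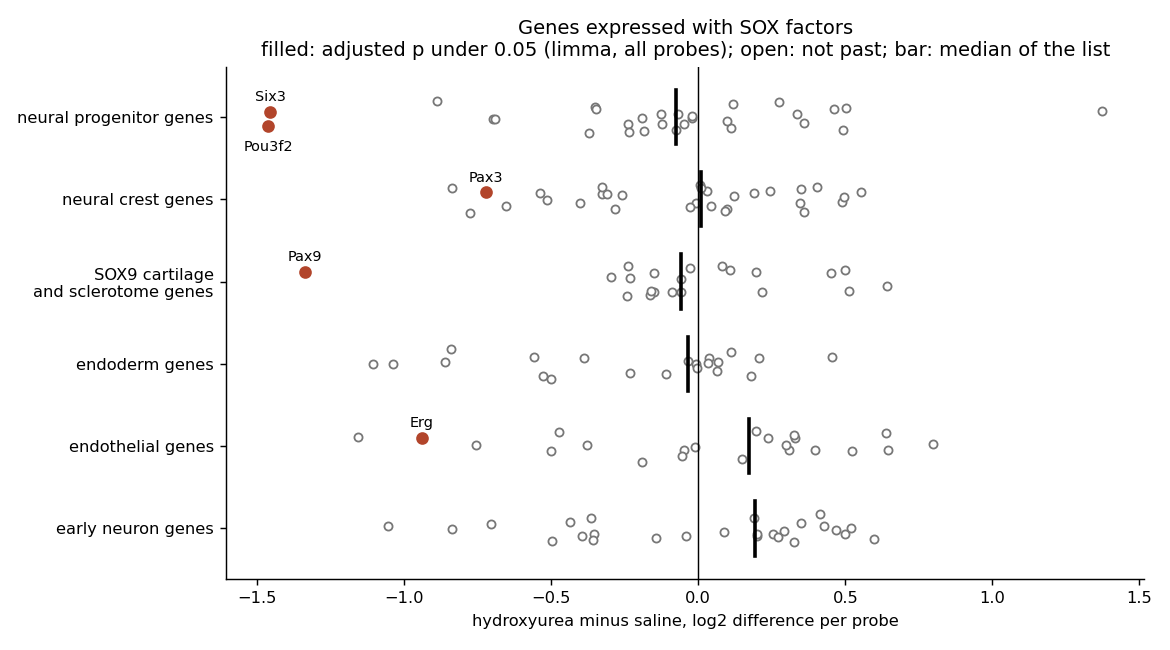
Hydroxyurea minus saline difference of each probe of the 6 lists, in log2 units, with the list's median as a bar; filled points were called by limma (adjusted p under 0.05 over all 30745 probes). The called probes are those of Six3, Pou3f2, Pax3, Pax9 and Erg, all below 0, and the list medians lie between -0.07 and 0.19.

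Markers of 2 further tissues were read as well. The 6 primitive blood markers were measured on all arrays, with summed levels of 1433 to 2446 in hydroxyurea samples and 1462 to 2248 in saline samples, and 0 were called. The 6 heart markers were measured on all arrays too, at 309.3 to 418.8 in hydroxyurea samples and 243.5 to 333 in saline samples, and Myh7, a heart myosin gene, was called higher (0.63, limma adjusted p = 0.0320).

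The authors' deposited table listed 1345 probes as differing, 2.42% of those on the array, in log2 values centred on each probe's median. The authors' deposited table included 2 of the 14 SOX probes, Sox14 at a hydroxyurea minus saline difference of -3.07 and Sox10 at -0.79. The Sox8 probe was not in the authors' deposited table, and none of the other Sox genes was.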

How the data were processed

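RNA of whole embryos was hybridised to 8 1-colour arrays, 4 per group. The scanner files hold intensity values that the authors' files and the submitters' processing notes attribute to Agilent Feature Extraction 11.5.1.1, background-subtracted and not scaled between arrays, per the file headers. The authors' deposited table holds log2 values; its scale and its centring on each probe's median were found by setting it against the scanner files, and the sources used here do not give its test or threshold.

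Spots marked as outliers (151 to 315 per array) were left out, 0 were saturated, and spots of a probe were averaged. The log2 processed signal minus the array's 75th percentile was fitted with lmFit and eBayes of limma 3.58.1, under R 4.3.3, with neither trend nor covariate, over 30745 probes well above background on at least 4 arrays, with two-sided p-values and Benjamini-Hochberg adjustment. Symbols came from RefSeq's GRCm38.p6 table, which named 26582 probes and left 29099 unnamed; 0 matched several symbols. The alternatives were normexp (offset 50), which used the median foreground and background signals because the mean was not among the files' columns, quantile normalization, median centring, eBayes with trend and robust, no filter or a filter of all 8 arrays, 1 feature per gene, the slide as a block, each slide alone, and each array left out.

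The members and lists were chosen with earlier results of these data known. Every probe of the Sox genes was named, and per list the 3 called genes of lowest p, or the 2 of lowest p where none was called; further probes of a named gene are given beside it. On simulated data for this comparison (30745 probes), 28 of 100 probes changed by -1, 80 of 100 changed by -2 and 8 of 30545 unchanged probes were called. The number of arrays limits the precision. Gene positions other than the start regions were not used.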

Additional observations from a re-analysis of the deposited data

Results flagged for a closer look

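Of 50 sets of 4 arrays checked for Sox probes, 6 held an array whose gap to the nearest other array, as a share of the set's whole range, exceeded Dixon's critical value at the 95% level; chance alone would mark about 1 in 20. For Sox2 in hydroxyurea samples the share was 0.909, set by array 3, which was nearest to saline. For Sox10 the share was 0.843 in hydroxyurea samples, set by array 1, and 0.937 in saline samples, set by array 4, with the other 3 arrays close together. For Sox7 in hydroxyurea samples it was 0.902, set by array 2. For Sox30 in hydroxyurea samples it was 0.896, set by array 3, and for Sry in hydroxyurea samples it was 0.855, set by array 2. Sox30 was above background on 0 arrays, and Sry on 1 hydroxyurea and 1 saline array.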

How the results depend on the processing

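No paired analysis was possible because the labels carry no replicate numbers that tie samples together. The main fit had no block. The slide served as a block only in an alternative setting, where 1621 probes were called. The median difference of the SOX probes, -0.35, kept its direction throughout, while its size varied. It ran from -0.47 to -0.28 when arrays were left out in turn, and was -0.30 with normexp and -0.41 with quantile normalization. With the filter of all 8 arrays, which Sox14 and Sox8 did not pass, it was -0.26. Of 264 differences of the 14 SOX probes, 260 moved by less than 1 SD and 4 by more. The 4 were Sox14, Sox8 and Sox21 (A_55_P2104899) with normexp and Sox8 without hydroxyurea arrays 2 and 3. Trend and robust, either filter setting, 1 feature per gene and the slide as a block cannot move a probe's difference. Such settings add to the 260 without testing the difference. The sign turned only for Sox11 probe A_52_P160955, kept under 13 of 18 settings, and Sox17 probe A_55_P2157023, kept under 17 of 19. The named and other Sox genes kept their direction, and 38 of 320 lost and 19 gained a call. The 2095 probes called became 911 with no filter, 44 on slide 1 alone, 3 on slide 2 alone, 4720 without hydroxyurea arrays 2 and 3, and 858 (without hydroxyurea array 4) to 4858 (without hydroxyurea array 2) when single arrays were left out; 993 were called without hydroxyurea array 1, and 1304, 1014, 991 and 1186 without saline arrays 1 to 4. The share of lower calls was 63.05%, but 52.69% with the filter of all 8 arrays and 47.73% on slide 1. For the other Sox genes 0 calls became 2 with trend and robust, 1 with normexp, 2 with quantile normalization, 2 with the filter of all 8 arrays, 1 without hydroxyurea arrays 2 and 3, and 0 to 3 with single arrays left out. For the lists 5 calls became 3 with 1 feature per gene, 10 with trend and robust, 2 with no filter, 9 with quantile normalization, 0 on either slide alone, 3 with the slide as a block, 9 with the filter of all 8 arrays, 17 without hydroxyurea arrays 2 and 3, and 2 to 18 with single arrays left out. Slides alone and arrays left out hold fewer samples, and no filter tests more probes. With arrays left out the counts moved both up and down, and why any of them moved was not tested. Signals near background, as those of Sox8 in hydroxyurea samples, limit the size of a difference.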

Other observations

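Sox1ot, a noncoding transcript that overlaps Sox1, was looked at after its values were seen. Of its 2 probes 1 passed the filter, with overlapping groups and a difference of 0.43 ± 0.22 (SE, n = 4 each, limma adjusted p = 0.271). The probe that did not pass had a lower mean in hydroxyurea samples, -5.83 against -5.515 in saline samples. Both Sox1 probes had negative differences.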
